A study of Homo sapiens with 6 samples.

Results

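H460 is a line of human lung cancer cells from a large cell carcinoma, and the transcripts of its Rag GTPases and of its folliculin complex were followed here after treatment with fluoxetine, an antidepressant that blocks the serotonin transporter. The 7 genes were RRAGA, RRAGB, RRAGC and RRAGD, which encode the Rag GTPases, FLCN, which encodes folliculin, and FNIP1 and FNIP2, which encode its binding partners. They were selected by gene name among the 31762 genes of the deposited table. The number of counts was to choose the row only where a symbol occurred more than once, and this was the case for 0 of the 7 genes. The family was picked with earlier results of the same comparison known, so its fold changes and p-values describe these genes and are not independent evidence.

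H460 cells labelled WT were exposed to 20 µM fluoxetine for 24 h, and control cells were not, with 3 libraries in each group. What the control cells received in place of the drug is not given in the sources used here, and the comparison covers a single cell line, dose and time. The labels do not say whether the libraries of a group came from separate cultures, so the p-values measure the spread between these libraries, which may be technical. RNA of whole cultures was sequenced, so more RNA per cell and more cells expressing a gene cannot be told apart.

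The control libraries held 19343565 to 27823667 counts on genes and the fluoxetine libraries 16157507 to 17113538, so every fluoxetine library was less deep than every control library. The 7 genes had between 88 counts (RRAGD, control replicate 2) and 1190 counts (RRAGA, control replicate 3) in a library. Of the markers used to check the cell line, the epithelial keratins KRT8, KRT18 and KRT19 had 291.1 to 2063 CPM in every library, where CPM divides the count of a gene by library size. EPCAM and CDH1, which also mark epithelia, reached at most 0.569 and 0.0619 CPM. The lung lineage markers NKX2-1, SFTPC and NAPSA reached at most 0.401 CPM, while SFTPB was not among the gene names of the deposited table. The leukocyte marker PTPRC and the endothelial markers PECAM1 and VWF reached at most 0.186 CPM. Of the fibroblast markers, DCN reached at most 0.414 CPM and COL1A1 lay between 3.20 and 5.27 CPM.

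The Rag GTPases are small G proteins of the lysosomal surface. They work as pairs in which RagA or RagB binds RagC or RagD, and the pair is held on the membrane by the Ragulator complex. When amino acids are plentiful, the active pair brings mTORC1, the growth-promoting kinase complex, to the lysosome. Folliculin, bound to FNIP1 or FNIP2, stimulates GTP hydrolysis by RagC and RagD. Through this step it controls whether mTORC1 can phosphorylate TFEB and TFE3, transcription factors of lysosomal and autophagy genes that bind DNA at an E-box with the core CACGTG. RRAGD is among the known target genes of this factor family. The deposited annotation placed all 7 genes in the mTOR signaling pathway.

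Promoter sequences are shown because 6 of these genes were called higher after fluoxetine and the E-box core can be looked for in them. Control by a shared factor was not tested. They were taken from RefSeq (build GRCh38.p14), where 5 of the 7 genes had at least 1 window of 250 bases before to 50 bases after the transcription start, and RRAGA and RRAGD were not among them. The letters CACGTG, which read the same on both strands, occurred in the windows of 3 genes, FNIP1, RRAGB and RRAGC. FLCN and both windows of FNIP2 did not hold them. Over all 35116 windows 7.26% held CACGTG, and over the 15007 windows of genes tested here 9.31% did. The first base of the core lay 175 and 94 bases before the start in FNIP1, 115 and 25 bases before it in RRAGB and 112 bases before it in RRAGC. RRAGB held a further core 8 bases into the transcript. The longer palindrome TCACGTGA, which includes the core and is a form preferred by TFEB, occurred in RRAGB alone among these genes, 26 bases before the start, and in 0.980% of all windows and 1.63% of those of tested genes. The element TGATGNAA, a core of sites for the stress factor ATF4, was in 0 of these windows on either strand, against 3.62% of all windows and 2.05% of those of tested genes. A match shows that the letters are there, not that a factor binds. The 200 bases before the start are given below from 5′ to 3′ on the strand of the gene, with each CACGTG in capitals, and FLCN, whose window lacks the core, is given for comparison.
RRAGC promoter, chr1:38859773-38859972, strand -: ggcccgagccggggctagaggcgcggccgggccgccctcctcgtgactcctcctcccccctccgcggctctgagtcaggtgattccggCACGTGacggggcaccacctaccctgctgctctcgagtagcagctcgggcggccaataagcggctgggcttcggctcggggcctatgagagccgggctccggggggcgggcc
FNIP1 promoter, chr5:131797018-131797217, strand -: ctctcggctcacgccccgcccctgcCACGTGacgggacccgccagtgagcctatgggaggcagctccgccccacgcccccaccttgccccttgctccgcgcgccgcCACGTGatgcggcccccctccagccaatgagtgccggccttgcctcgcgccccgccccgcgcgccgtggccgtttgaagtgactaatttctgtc
RRAGB promoter, chrX:55717549-55717748, strand +: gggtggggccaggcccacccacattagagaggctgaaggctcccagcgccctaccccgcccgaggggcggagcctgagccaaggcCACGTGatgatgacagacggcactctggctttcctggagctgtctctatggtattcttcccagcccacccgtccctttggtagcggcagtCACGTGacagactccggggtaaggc
FLCN promoter, chr17:17237169-17237368, strand -: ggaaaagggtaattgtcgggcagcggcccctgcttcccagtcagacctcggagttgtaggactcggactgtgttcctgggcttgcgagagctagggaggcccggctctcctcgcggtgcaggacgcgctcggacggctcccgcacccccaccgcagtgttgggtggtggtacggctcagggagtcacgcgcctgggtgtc

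RRAGA, the most abundant of the 4 Rag transcripts, was measured at 45.4, 46.5 and 42.9 CPM in the control libraries (replicates 1 to 3) and at 47.9, 54.7 and 45.3 CPM in the fluoxetine libraries (in the same order). These and all later levels are CPM after TMM normalization. The groups overlapped, since fluoxetine replicate 3 lay below control replicates 1 and 2. The means were 44.9 ± 1.87 CPM (SD, n = 3) and 49.3 ± 4.86 CPM (SD, n = 3). The log2 fold change of fluoxetine over control was 0.13, with a 95% interval from -0.07 to 0.34, and it did not pass the test (adjusted p of 0.392 over 15646 genes, by the quasi-likelihood test of edgeR). RRAGA (ENSG00000155876, chr9:19049395-19050983, plus strand, build GRCh38 as for all genes here) has a single exon.

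RRAGB, the X-linked relative of RRAGA (ENSG00000083750, chrX:55717739-55758774, plus strand), was measured at 9.89, 9.43 and 8.97 CPM in the control libraries (replicates 1 to 3) and at 14.3, 13.9 and 12.8 CPM in the fluoxetine libraries (in the same order). Every fluoxetine library was above every control library. The means were 9.43 ± 0.459 CPM (SD, n = 3) and 13.7 ± 0.761 CPM (SD, n = 3), with a log2 fold change of 0.54 ± 0.12 (SE) at an edgeR adjusted p of 0.0141. The edgeR adjusted p was 0.0787 without control replicate 2 and 0.107 without fluoxetine replicate 1, so the call was lost in those fits. They have fewer libraries, and their log2 fold changes of RRAGB were 0.50 and 0.48.

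RRAGD showed the largest change of the family. RRAGD (ENSG00000025039, chr6:89364636-89412270, minus strand) encodes the partner GTPase that stands in for RagC. Its level was 5.22, 4.58 and 4.50 CPM in the control libraries (replicates 1 to 3), and 25.1, 31.0 and 27.1 CPM in the fluoxetine libraries (in the same order). The lowest fluoxetine library was far above the highest control library. The log2 fold change of 2.54 ± 0.13 (SE) at an edgeR adjusted p of 1.88e-06 was a 5.82-fold rise and was number 11 from the highest among the log2 fold changes of all 15646 tested genes.

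RRAGC (ENSG00000116954, chr1:38838198-38859823, minus strand) encodes RagC itself. Its level was 11.3, 7.50 and 8.68 CPM in the control libraries (replicates 1 to 3), and 18.8, 22.6 and 20.3 CPM in the fluoxetine libraries (in the same order). The groups did not overlap, although the control libraries varied more than those of any other of the 7 genes, with an SD of 21.2% of the mean. On the log2 scale RRAGC changed by 1.17 ± 0.15 (SE) at an edgeR adjusted p of 0.00117, a 2.24-fold rise. The 95% intervals of the log2 fold changes, 0.82 to 1.51 for RRAGC and 2.25 to 2.83 for RRAGD, did not overlap, but the difference between the 2 changes was not tested.

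FLCN, the gene mutated in Birt-Hogg-Dubé syndrome, rose with little spread. FLCN (ENSG00000154803, chr17:17212212-17237188, minus strand) was measured at 14.3, 14.0 and 13.5 CPM in the control libraries (replicates 1 to 3), and at 30.1, 32.8 and 30.1 CPM in the fluoxetine libraries (in the same order). The fluoxetine libraries stood well apart from the control libraries, whose SD was 2.95% of their mean. FLCN changed on the log2 scale by 1.16 ± 0.10 (SE) at an edgeR adjusted p of 5.29e-05, a 2.23-fold rise.

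FNIP1 (ENSG00000217128, chr5:131641714-131797063, minus strand) had a larger fold change than FLCN, a difference that was not tested. Its level was 19.5, 17.6 and 25.6 CPM in the control libraries (replicates 1 to 3), and 65.3, 61.7 and 61.8 CPM in the fluoxetine libraries (in the same order). Control replicate 3 was the highest control library and still lay far below the fluoxetine libraries. Its change on the log2 scale was 1.58 ± 0.13 (SE) at an edgeR adjusted p of 4.75e-05, a 2.997-fold rise, and it was 1.73 without control replicate 3.

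FNIP2 (ENSG00000052795, chr4:158769138-158908049, plus strand), the paralog of FNIP1, was measured at 8.03, 10.2 and 10.2 CPM in the control libraries (replicates 1 to 3) and at 16.5, 14.8 and 16.2 CPM in the fluoxetine libraries (in the same order). The groups did not overlap. FNIP2 changed by 0.74 ± 0.13 (SE) on the log2 scale at an edgeR adjusted p of 0.00548, a 1.67-fold rise, and its interval from 0.45 to 1.03 reached just past a doubling at its upper end. Without fluoxetine replicate 1 the adjusted p of FNIP2 was 0.0518.

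**Figure D1:**
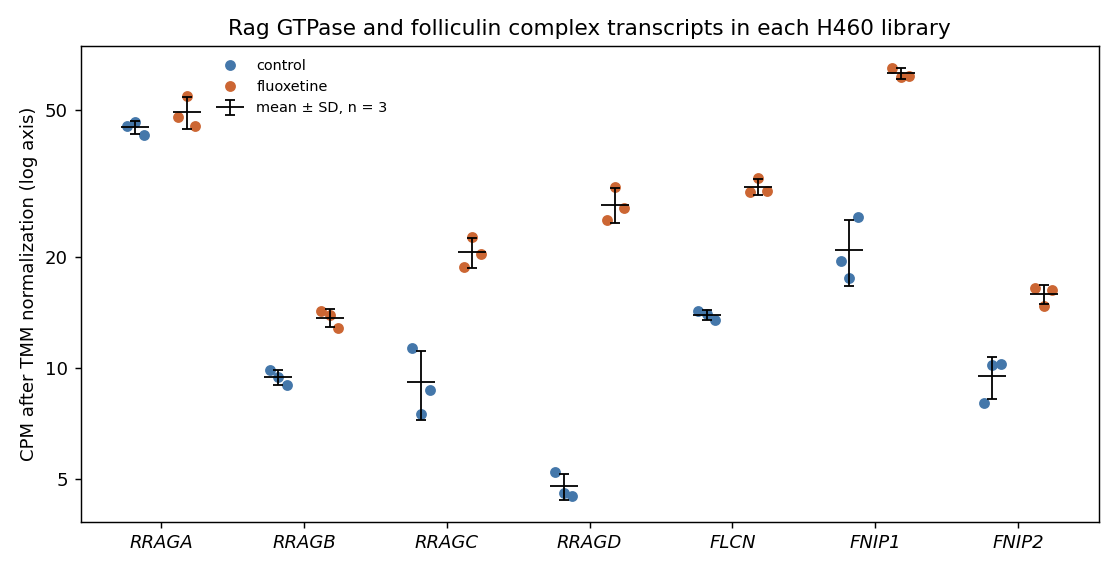
CPM after TMM normalization (log axis) of each of the 7 genes, with a point for each library, control in blue and fluoxetine in orange, and bars for the mean ± SD over 3 libraries. In 6 genes all fluoxetine points lie above all control points, from RRAGD at 4.50 to 5.22 against 25.1 to 31.0 CPM down to RRAGB at 8.97 to 9.89 against 12.8 to 14.3 CPM, and in RRAGA the groups overlap.

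All 7 genes passed the filter on low counts, and 6 of them were upregulated at an adjusted p under 0.05 at any fold change, against 7.76% of all tested genes that were called higher. With a fold change of at least 2 in addition, 4 were called (RRAGD, FNIP1, RRAGC and FLCN), against 1.25% of all tested genes. Every fluoxetine library was above every control library in 6 of the 7, against 17.5% of all tested genes. The median log2 fold change was 1.16 over the 7 genes and 0.03 over all tested genes. These shares are given as a description, since the family was picked from this comparison. The 4 genes past the fold change of 2 were called in each of 14 alternative fits, among them DESeq2, limma-voom, 6 fits that each left out a library and a fit with every library thinned to 16157507 counts. In the thinned libraries the log2 fold changes were 2.58 for RRAGD, 1.57 for FNIP1, 1.16 for FLCN and 1.13 for RRAGC. The lowest value for RRAGC in the alternative fits was 1.007, without control replicate 2. In the main fit the 95% intervals of RRAGC, 0.82 to 1.51, and FLCN, 0.94 to 1.37, reached below a doubling. The adjusted p is for a difference from no change, not from a doubling.

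Levels of different genes were compared per kilobase of exon, with the union of the annotated exons of GENCODE release 29 as the length. In control cells RRAGA stood at 28.3 ± 1.178 CPM per kilobase (SD, n = 3), followed by RRAGB at 3.46 ± 0.168, FNIP1 at 2.63 ± 0.532, RRAGC at 1.77 ± 0.376, FLCN at 1.42 ± 0.0419, RRAGD at 0.940 ± 0.0769 and FNIP2 at 0.872 ± 0.115 CPM per kilobase. The ranges over libraries overlapped between RRAGC and FLCN and between RRAGD and FNIP2, and not between the other neighbours in this order. After fluoxetine, RRAGA remained highest at 31.0 ± 3.06 CPM per kilobase (SD, n = 3), followed by FNIP1 at 7.92 ± 0.257, RRAGD at 5.47 ± 0.588, RRAGB at 5.01 ± 0.279, RRAGC at 3.98 ± 0.368, FLCN at 3.17 ± 0.162 and FNIP2 at 1.46 ± 0.0855 CPM per kilobase. RRAGD thus moved from place 6 to place 3, where its range overlapped that of RRAGB. The mean level of FNIP1 rose by 5.29 CPM per kilobase, more than the 4.53 of RRAGD, although the fold change of RRAGD was larger. The order below RRAGA depends on the length chosen. With the longest annotated transcript as the length, FLCN stood at place 3 in both groups, at 3.82 ± 0.113 and 8.52 ± 0.437 CPM per kilobase (SD, n = 3), and RRAGD at place 7 in control cells and 6 after fluoxetine.

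**Figure D2:**
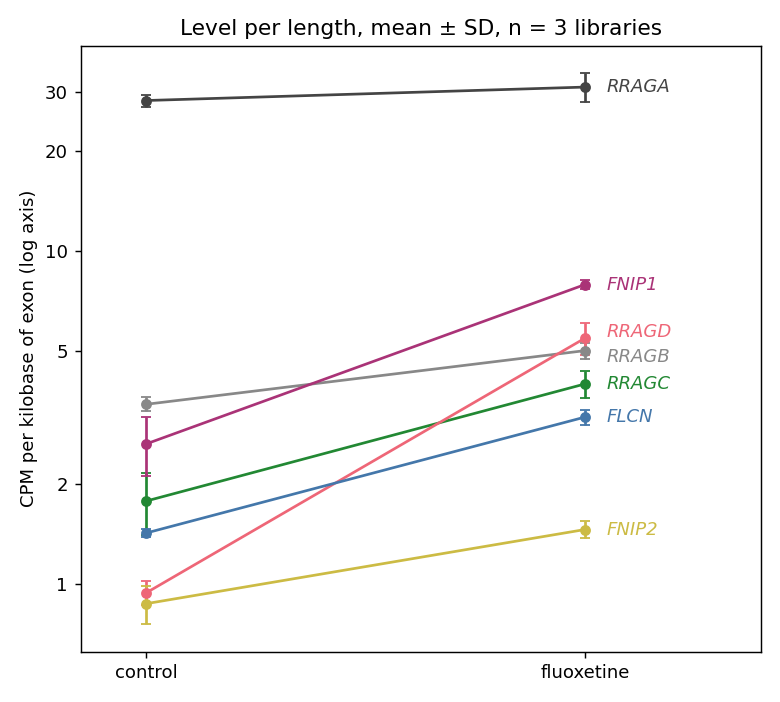
Level per length of the 7 genes in CPM per kilobase of exon (log axis) in control and fluoxetine cells, as the mean ± SD over 3 libraries, with a line for each gene. RRAGA is nearly level at 28.3 and 31.0, while RRAGD climbs from 0.940 to 5.47 and crosses RRAGC, FLCN and RRAGB. After fluoxetine the ranges of RRAGD and RRAGB over libraries overlap.

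Within each pair of paralogs, the shares of the summed level per kilobase differed between the groups. RRAGD made up 32.0%, 38.4% and 34.6% of RRAGC plus RRAGD in the control libraries (replicates 1 to 3), and 57.6%, 58.3% and 57.6% in the fluoxetine libraries (in the same order). The sum of RRAGC and RRAGD was 2.71 ± 0.447 CPM per kilobase (SD, n = 3) in control cells and 9.45 ± 0.955 after fluoxetine, a ratio of 3.48. With the longest transcript as the length the share of RRAGD was 22.8% in control cells and 42.9% after fluoxetine. Whether RRAGD exceeded RRAGC after treatment thus depends on the length. Each gene has the same length in every library, so no choice of length can change the direction of a share difference between the groups. RRAGB made up 10.9% ± 0.350 (SD, n = 3) of RRAGA plus RRAGB in control cells and 14.0% ± 0.957 after fluoxetine, and the sum of both moved by a ratio of 1.14. With the longest transcript as the length the share of RRAGB was 13.9% in control cells and 17.7% after fluoxetine. The level of RagA and RagB transcripts per kilobase was 11.9 ± 1.94 times (SD, n = 3) that of RagC and RagD transcripts in control cells and 3.82 ± 0.270 times after fluoxetine. This ratio depends on the length as well. It was not computed with the longest transcript, with which RRAGB stood at 4.58 and RRAGC at 3.35 CPM per kilobase in control cells.

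Of the folliculin partners, FNIP1 took a larger share after fluoxetine. FNIP2 made up 23.1%, 29.7% and 22.6% of FNIP1 plus FNIP2 per kilobase in the control libraries (replicates 1 to 3), and 15.6%, 14.9% and 16.1% in the fluoxetine libraries (in the same order). The groups did not overlap, and the sum of both went from 3.50 ± 0.578 to 9.38 ± 0.317 CPM per kilobase (SD, n = 3), a ratio of 2.68. FNIP1 stood at 1.86 ± 0.427 times (SD, n = 3) the level of FLCN per kilobase in control cells and at 2.51 ± 0.182 times after fluoxetine. In control replicate 3 it was 2.35 times, within the range of the fluoxetine libraries. Whether FNIP1 exceeded FLCN in control cells depends on the length. With the longest transcript, FNIP1 stood at 3.17 and FLCN at 3.82 CPM per kilobase in control cells, against 9.55 and 8.52 after fluoxetine. These shares and ratios are from the comparison that picked the family and were not tested. For a single value, 3 libraries against 3 cannot give an exact two-sided permutation p below 0.1.

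**Figure D3:**
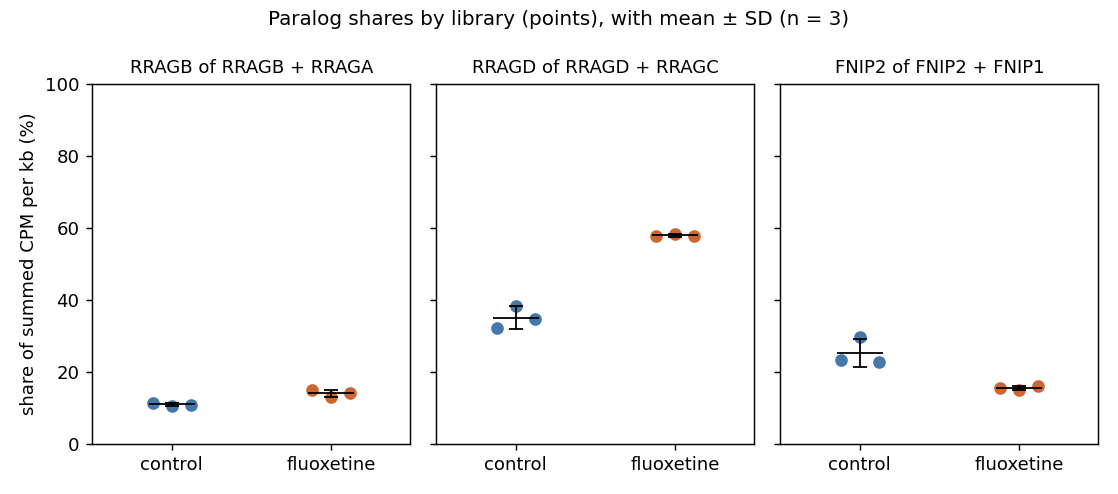
Share (%) of RRAGB in RRAGB plus RRAGA, of RRAGD in RRAGD plus RRAGC and of FNIP2 in FNIP2 plus FNIP1, from levels in CPM per kilobase, with a point for each library and bars for the mean ± SD over 3 libraries. RRAGD goes from 32.0 to 38.4% in control cells to 57.6 to 58.3% after fluoxetine, and FNIP2 from 22.6 to 29.7% to 14.9 to 16.1%.

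Neighbouring annotation could take reads from some of these genes. Stretches of 75 bases of the longest transcript of RRAGA, RRAGB, RRAGD and FNIP2 were shared with the transcripts of 0 other genes, paralogs and pseudogenes of GENCODE release 29 included. For RRAGC, 41.8% of such stretches also occur in AL139260.2, a gene on the same strand, for FLCN 27.3% occur in AC055811.2 on the same strand and for FNIP1 3.18% occur in AC008695.1, also on the same strand. Counting that drops reads shared by several genes would lower the levels of RRAGC and FLCN, and the annotation used for the counting is not given in the sources used here. AC055811.2 had 0 to 5 counts in a library, and AL139260.2 and AC008695.1 were not among the genes of the deposited table. MPRIP overlaps the 3′ end of FLCN on the opposite strand, with 0 bases of exon in common. With only the exon bases that belong to no other gene as the length, RRAGD made up 29.3% of RRAGC plus RRAGD in control cells and 51.4% after fluoxetine.

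Of 36 other genes of the nutrient-sensing machinery around the Rag GTPases, 34 passed the filter on low counts, 4 of them were higher and 1 was lower at an adjusted p under 0.05, and 0 reached a fold change of 2. Among all tested genes 7.76% were called higher and 5.32% lower. The median log2 fold change of the 34 was 0.06, against 0.03 over all tested genes. CASTOR1, an arginine sensor, and TFEC, a relative of TFEB, were not tested, with at most 7 and 6 counts in a library.

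In the Ragulator complex, the lysosomal anchor of the Rag GTPases, 1 of 5 genes was called. LAMTOR3 rose from 27.1 ± 0.936 to 38.7 ± 1.53 CPM (SD, n = 3), with a log2 fold change of 0.52 (edgeR adjusted p of 0.00472), and LAMTOR1 had a log2 fold change of 0.34 (edgeR adjusted p of 0.0624). LAMTOR1 was past the threshold in 4 of 14 alternative fits, with an adjusted p of 0.0473 with library size only, 0.0441 without the filter on low counts, 0.0402 at equal depth and 0.0020 with the replicate block. Without fluoxetine replicate 1 the adjusted p of LAMTOR3 was 0.0621. SLC38A9, the arginine transceptor that binds Ragulator, had a log2 fold change of -0.03 with an interval from -0.28 to 0.21.

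In GATOR1, which switches RagA and RagB off, GATOR2, which restrains GATOR1, and KICSTOR, which places GATOR1 on the lysosome, 0 of 12 genes were called. DEPDC5 of GATOR1 had a log2 fold change of 0.37 (edgeR adjusted p of 0.0600). The log2 fold changes of the 5 GATOR2 genes lay between -0.37 and 0.20 and those of the 4 KICSTOR genes between -0.25 and 0.21.

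Among the 7 tested genes of amino acid sensors and their relatives, SESN3 was called. SESN3, a sestrin, went from 106.4 ± 17.4 to 142.6 ± 16.6 CPM (SD, n = 3), with a log2 fold change of 0.42 (edgeR adjusted p of 0.0487). The groups of SESN3 overlapped slightly, with a highest control library of 123.56 CPM and a lowest fluoxetine library of 123.54 CPM. This call was lost in 7 of 14 alternative fits, for example without fluoxetine replicate 1 (edgeR adjusted p = 0.216). Of the cholesterol sensor GPR155 and the ubiquitin ligase RNF152, which modifies RagA, 0 were called. GPR155 had a log2 fold change of 0.19 with an interval from -0.26 to 0.64. RNF152 had only 9 to 18 counts in a library, and its log2 fold change of 0.64 had a wide interval, from -0.18 to 1.46. SESN2, the leucine sensor, had a log2 fold change of 0.06 with an interval from -0.19 to 0.30.

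Of the clients that active Rag GTPases bind or bring to the lysosome, 0 were called higher and 1 was called lower. TFEB had a log2 fold change of -0.14 with an interval from -0.76 to 0.48, TFE3 of -0.11 with an interval from -0.31 to 0.09 and RPTOR, the mTORC1 subunit that binds the Rag pair, of 0.14 with an interval from -0.12 to 0.40. MITF fell from 20.5 ± 2.08 to 15.6 ± 0.315 CPM (SD, n = 3), with a log2 fold change of -0.39 (edgeR adjusted p of 0.0414), and lost this call in 5 of 14 alternative fits, for example without fluoxetine replicate 1 (adjusted p = 0.134).

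The complex of C9orf72, SMCR8 and WDR41, whose first 2 subunits share the longin and DENN fold with folliculin and FNIP, had 2 of 3 genes called. SMCR8 rose from 61.7 ± 7.38 to 99.2 ± 17.1 CPM (SD, n = 3), with a log2 fold change of 0.69 (edgeR adjusted p of 0.00791). C9orf72 rose from 12.8 ± 1.74 to 19.2 ± 1.52 CPM (SD, n = 3), with a log2 fold change of 0.59 (edgeR adjusted p of 0.0152), while WDR41 had a log2 fold change of 0.09 with an interval from -0.08 to 0.26. Without fluoxetine replicate 1 the adjusted p was 0.0547 for SMCR8 and 0.0792 for C9orf72, and without control replicates 1 and 2 in turn it was 0.0625 and 0.0701 for C9orf72.

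**Figure D4:**
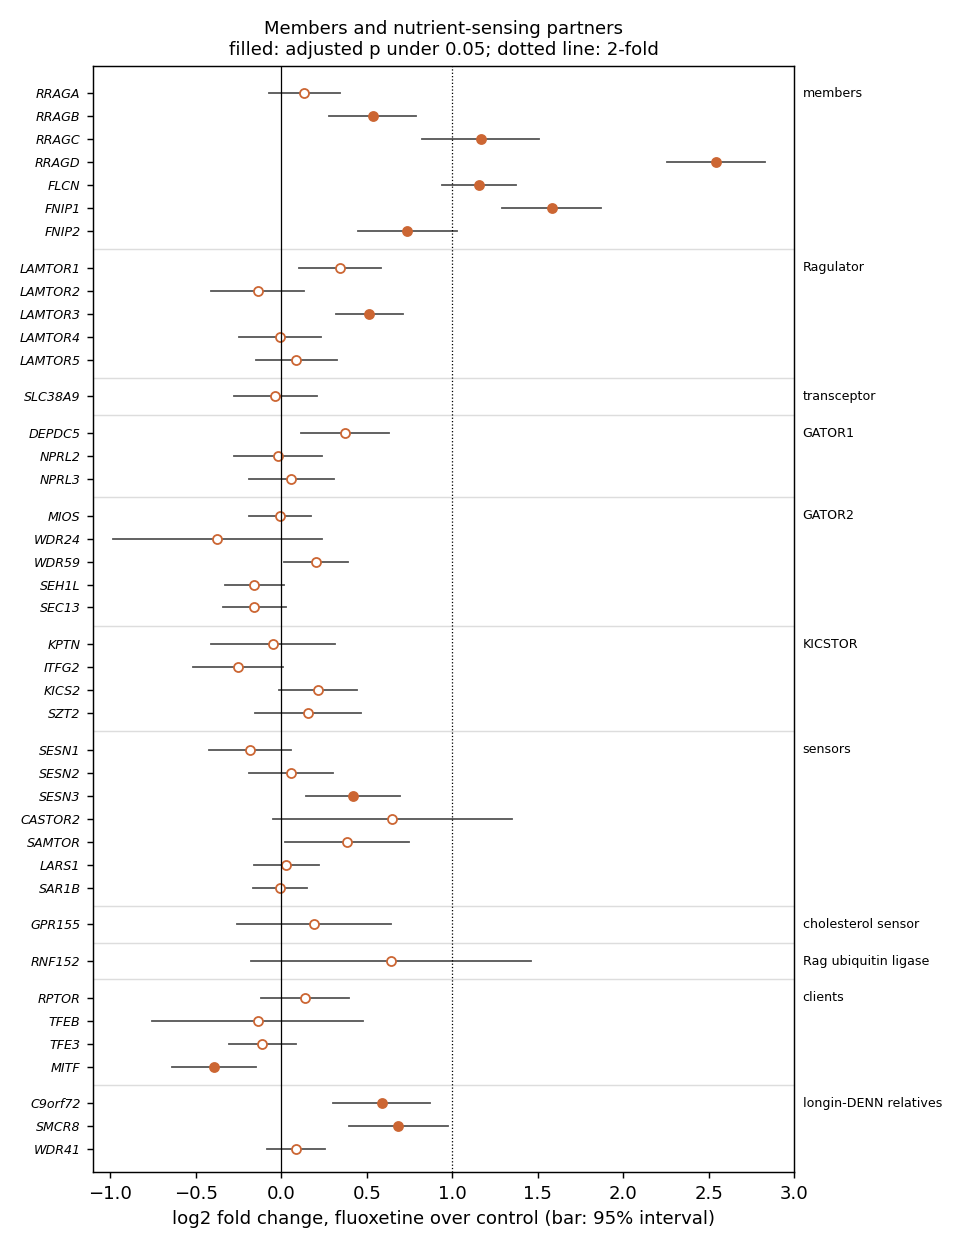
log2 fold change of fluoxetine over control with its 95% interval for the 7 genes of the family and 34 tested partners, grouped by complex, with filled points at an adjusted p under 0.05 and a dotted line at a doubling. RRAGD at 2.54 and FNIP1 at 1.58 lie farthest to the right, and the largest partner, SMCR8, lies at 0.69.

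For the 4 genes past a fold change of 2, the tested genes with the closest profile were looked up, by the root mean square difference in log2 CPM over the 6 libraries after each gene was centred on its control mean. Closest to RRAGD with a prior count of 2 were NUPR1, INSIG1 and GCNT3, at 0.11, 0.14 and 0.18. INSIG1 encodes a sterol-regulated brake on SREBP processing and GCNT3 a mucin glycosyltransferase. The place of NUPR1, which encodes a stress-induced nuclear protein, depends on the prior count. It had 0.306 CPM in control cells and 2.48 CPM after fluoxetine, so it reached the minimum mean of 1 CPM through the fluoxetine libraries alone, its fitted log2 fold change was 2.997 against 2.54 for RRAGD, and with a prior count of 0.5 it was not among the 3 closest genes. Closest to FLCN were FDFT1, which encodes squalene synthase, VAT1 and GLMP, a lysosomal membrane protein, at 0.04, 0.05 and 0.05. Closest to FNIP1 were FADS1, a fatty acid desaturase, DCLK1, a kinase, and LPIN1, a phosphatidate phosphatase, each at 0.14 to 0.15. Closest to RRAGC were ITGA7, an integrin subunit, AC144652.1 and KIAA0513, at 0.09, 0.13 and 0.13. With a prior count of 0.5, the same 3 genes were found for FLCN and RRAGC, INSIG1 and GCNT3 were kept for RRAGD, and FADS1 and DCLK1 but not LPIN1 for FNIP1. The likeness covers 6 libraries, which include the difference between the groups.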

How the data were processed

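RNA of H460 cells was sequenced as 6 libraries, 3 of control cells and 3 of cells given 20 µM fluoxetine for 24 h. The authors deposited raw counts of reads per gene and library, without normalization or pooling. The submitters' processing notes name fastp 0.20.0, HISAT2 2.1.0, HTSeq 0.10.0 and DESeq2 1.18.1. The genome build, annotation and strand setting of the counting are not given in the sources used here. The gene coordinates are those of GRCh38, and all 7 genes had the same start, end and strand in GENCODE release 29. The table also holds the authors' log2 fold changes, p-values and adjusted p-values, which were not used. In all, 0 columns of per-sample values were left out.

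The test was that of edgeR 4.0.16 in R 4.3.3 (glmQLFit and glmQLFTest, TMM, filterByExpr, no covariate), with Benjamini-Hochberg adjustment over 15646 genes. Standard errors are the log2 fold change divided by the square root of its F statistic, and intervals use the t quantile at the total degrees of freedom of the fit. Counts of 3, the limit that a count of 0 allows, were worth 0.108 to 0.186 CPM, for counting error only. Replicates differed by more than sampling noise (chi-square per degree of freedom of 2.74 to 14.6 within groups). The alternatives were DESeq2 1.42.0, limma-voom (limma 3.58.1), RLE scaling, scaling by total alone, the unfiltered table, a minimum of 10 counts per library, a block on the replicate number, fits without each library, other gene lengths and another prior count. Equal depth and lengths without shared bases were added after seeing the data. The test was checked on simulated counts with planted changes. The simulated libraries were drawn independently, so this check does not cover technical replicates or paired libraries. Genes named are the 7 members, every partner past the test, up to 10 other tested partners by role, and the untested CASTOR1 and TFEC. The nearest profiles are the 3 closest of the tested genes at a mean of at least 1 CPM, with a prior count of 2. The members and lists were chosen with earlier results of these data known. Overlapping genes, including MPRIP, were named from the annotation.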

Additional observations from a re-analysis of the deposited data

How the results depend on the processing

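The count of the 7 genes called at a fold change of at least 2 was 4 in every alternative fit. The count at any fold change was 6 in every fit that kept all libraries, and 4 to 6 in fits without 1 library. RRAGA passed in 0 of 14 fits, with adjusted p-values from edgeR, DESeq2 and limma-voom between 0.301 and 0.913. The number of partners called higher was 3 to 5 in the fits of all libraries without a block, with 5 in the unfiltered table and at equal depth. With a single library left out, 0 to 4 were called higher and 0 to 2 lower, with 0 higher and 0 lower without fluoxetine replicate 1, where each fit has fewer libraries. With library size only, 0 were called lower. The log2 fold change of SESN2 lay between -0.046 without control replicate 3 and 0.107 without control replicate 2. That of TFEB lay between -0.424 without control replicate 3 and 0.042 without fluoxetine replicate 3, and was 0.026 without control replicate 2. The replicate numbers gave correlations of 0.0297, 0.116 and 0.392 between the deviations of same-numbered libraries, and 4 of 6 libraries correlated best with their own number. These values do not settle whether the numbers pair the samples. The main fit did not use the numbers, and a block on them was an alternative. With the replicate block the counts of the 7 genes were again 4 and 6, 6 partners were higher and 1 lower, LAMTOR1 and DEPDC5 among them with log2 fold changes of 0.35 and 0.37, and 4018 of all genes were past the adjusted p, against 2047 without it. The fits differ in more than the block, since the median total degrees of freedom after variance moderation were 31292 with it and 10.5 without, and the parts of the block and of the moderation in these counts were not separated. Without division by length, FNIP2 made up 31.4% of FNIP1 plus FNIP2 in control cells and 20.1% after fluoxetine. In control cells RRAGD had the fewest counts of the 7 genes, 88 to 125 in a library.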
